A study of Mus musculus with 23 samples.

Results

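The Cd5l locus was described as 25 regions of open chromatin, out of 155039 in the whole series, whose nearest mm10 protein-coding gene body within 50 kb was that of Cd5l. Cd5l (NCBI gene 11801) lies on the forward strand at chr3:87357881-87371074 in mm10. ATAC-seq, in which a transposase inserts adapters into accessible DNA, had been run on 23 mouse libraries in 11 groups and 4 experiments. The deposited files list the peaks of each library. Peaks that overlapped in any libraries were merged into 1 region, and the regions were numbered R1 to R25 from the most upstream to the most downstream.

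The repopulation experiment held blood Ly6C-high monocytes from untreated C57BL/6J mice (2 libraries), and liver cells of Clec4f-cre/Rosa26iDTR mice, in which a Cre driven by the Kupffer cell gene Clec4f switches on a diphtheria toxin receptor. From these mice came Kupffer cells after PBS (2 libraries) and repopulating liver macrophages 24 h (3 libraries) and 48 h (2 libraries) after diphtheria toxin. The Nr1h3 experiment held TIM4+ Kupffer cells of Nr1h3 flox/flox controls, and TIM4+ and TIM4- Kupffer cells of Nr1h3 flox/flox Clec4f-cre +/- knockouts (2 libraries each). Nr1h3 encodes LXRα, and the deletion reaches only cells in which Clec4f is active. Titles of the controls also carry the word ClecNeg and those of the knockouts ClecPos, whose meaning the labels do not give. The Smad4 experiment held 2 Kupffer cell libraries titled knockout and 2 titled control, but the strain labels give Smad4 flox/flox to the former and Smad4 flox/flox Clec4f-cre +/- to the latter. Groups follow the titles and file headers here, so a correct strain label would turn every Smad4 direction. In culture were bone marrow-derived macrophages of C57BL/6J mice, grown for 4 days, with the Notch ligand DLL4 or without treatment for 24 h (2 libraries each). The labels give no ages, and outside the repopulation and Smad4 experiments, whose titles carry a number for the mouse or sample, they do not say that libraries came from separate animals. The p-values measure only the spread between these libraries.

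CD5L, also called AIM, is a secreted protein of the scavenger receptor cysteine-rich family that tissue macrophages make. It is known as a factor that keeps macrophages alive, circulates bound to IgM, and enters fat cells through the scavenger receptor CD36, where it inhibits fatty acid synthase. In liver it is made by Kupffer cells, the resident macrophages. The gene is known as a target of the oxysterol receptors LXRα and LXRβ, which bind DNA with RXR partners. ATAC-seq reads open chromatin and not transcripts, so nothing here measures CD5L itself.

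The sequence before the gene start is shown because R17, the region over it, had a peak in 17 of 23 libraries and in none of the monocyte and 24 h libraries. The line below gives the 250 bases before the start from the RefSeq promoter table (GRCm38.p6, forward strand, chr3:87357631-87357880), of which 148 lie in R17, and the capitals mark a match, on the reverse strand, to the core GAGGAA of PU.1, the myeloid master factor.
Cd5l promoter: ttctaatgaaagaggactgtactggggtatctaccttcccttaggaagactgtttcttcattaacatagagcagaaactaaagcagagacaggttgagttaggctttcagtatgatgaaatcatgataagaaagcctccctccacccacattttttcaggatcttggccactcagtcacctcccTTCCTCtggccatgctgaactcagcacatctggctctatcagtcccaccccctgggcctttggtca
The match lies 66 to 61 bases before the start, and 28.3% of 32851 promoter windows of 300 bases hold the core on either strand. No match was found in the 300-base window for the nuclear receptor core AGGTCA (16.3% of windows), for the DR4 arrangement to which LXR and RXR bind (0.0822%), for RBPJ as TGGGAA (25.6%), SMAD as CAGAC (49.6%), AP-1 as TGANTCA (7.81%) or TATAAA (13.6%). A match is a run of letters and not a bound site, and the sequences of the distal regions were not used here. The window has a GC content of 46.3% and 0 CG pairs, against medians of 52.7% and 7 over all windows.

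Of the 25 regions, 16 lay upstream of the gene, the farthest 37.1 kb away, 1 lay over the gene start and 8 lay inside the gene body. R2 (35.1 kb upstream, chr3:87322626-87322909), R9 (23.8 kb upstream, chr3:87333732-87334342) and R11 (19.8 kb upstream, chr3:87337939-87338305) were called in all 23 libraries. R24, 11.5 kb inside the gene (chr3:87369249-87369537), was called in 21 and R17, over the start (chr3:87357733-87358004), in 17. Of the other 20 regions, 7 were called in 6 to 13 libraries, 10 in 2 to 5 and 3 in 1. R9 is wide because 6 libraries had a second, weaker peak in it. The strongest peak gave each library's value.

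Values are HOMER normalized tag counts, the tags in a 200 bp peak scaled to 10000000 tags per library. Libraries held 10.43 to 18.36 M tags, and 9 to 211 tags stood behind each Cd5l value. A peak had to hold 8 to 11 tags, or 5.30 to 8.63 normalized tag counts, so a library without a peak has no deposited value and its chromatin need not be closed. Peak numbers ran from 48775 to 104206 per library and the share of tags in peaks, the approximate IP efficiency of the headers, from 15.4% in a titled Smad4 knockout to 54.7% in a DLL4 library. Because of this the tests centre each library on its median, and fold changes are relative to the median region. The promoter table holds gene starts for 2 of 5 macrophage markers (Fcgr1 and Mertk) and 5 of 6 hepatocyte markers. Both macrophage starts had peaks in every liver library, and 0 of the hepatocyte starts in any library. Of stellate cell and T and NK cell starts 0 had a peak in any library. Kupffer cell markers (Clec4f, Timd4, Vsig4, Cd207, Marco) had peaks at 0 of 5 starts in monocytes and at both repopulation times, 4 to 5 in PBS Kupffer cells and 3 in cultured macrophages. Other markers moved with the comparisons. Of 4 monocyte marker starts 2 to 3 had peaks in monocytes, 1 at 24 h and 48 h, 0 in Kupffer cells and 3 to 4 in culture. Ly6c2 among them was 57.0 to 62.7 in monocytes, 24.5 to 36.0 at 24 h and 26.1 to 27.1 at 48 h, and had no peak in Kupffer cells. Dendritic cell Flt3 was 215.7 to 300.9 in monocytes, 74.9 to 90.8 at 24 h, 46.2 to 66.2 at 48 h and at most 13.3 in PBS Kupffer cells. Neutrophil S100a8 was 15 to 21.8 in Nr1h3 controls, 6.5 to 12.5 in TIM4- knockouts and without a peak in TIM4+ and titled Smad4 knockouts. It was highest in culture, 66.6 to 105.0 untreated and 84.1 to 109.0 with DLL4. Of the other neutrophil markers, Ly6g and Mpo had no peak in any library and Cxcr2 none in Kupffer cells. Endothelial Kdr had a peak in all 3 libraries at 24 h (17.1 to 31.8) and in both DLL4 libraries (10.2 to 17.1). Single libraries of monocytes (12.7), 48 h (14.8), TIM4- knockouts (6.5) and untreated culture (9.8) also had a Kdr peak. Stab2 and Clec4g had none anywhere. B cell Cd79a had a peak in both DLL4 libraries (13.7 to 15.3), 1 untreated cultured library (11.4) and 1 library at 24 h (9.5). Pax5 and Cd22 had none in any library. The part of these in the Cd5l values was not tested. In bulk libraries, fewer cells with an open region and less opening per cell cannot be told apart.

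**Figure D1:**
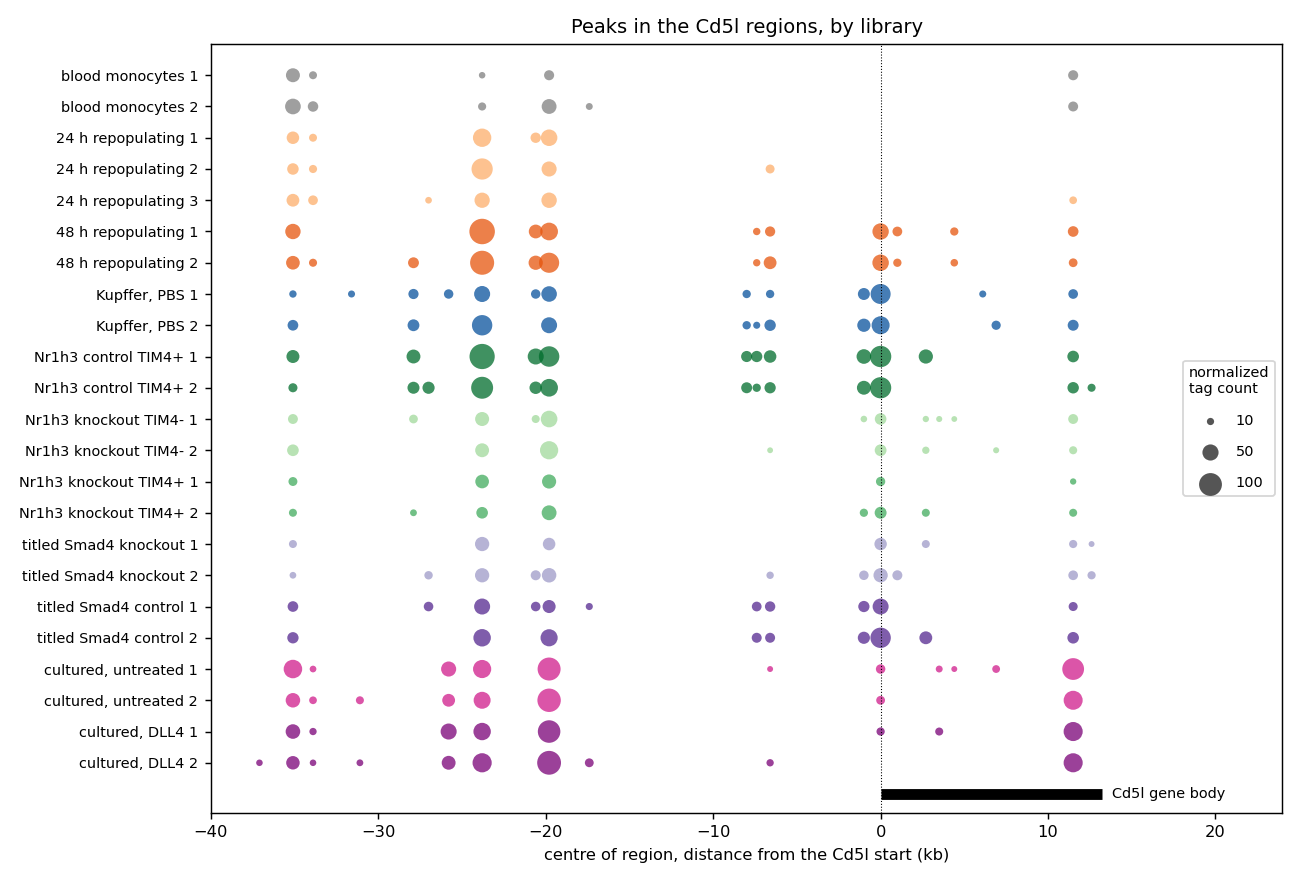
Each point is a called Cd5l region in 1 library, placed by the distance of its centre from the gene start in kb, with its area proportional to the normalized tag count. Points at 35.1, 23.8 and 19.8 kb upstream stand in all 23 rows, while the point at the start is missing in both monocyte libraries, all 3 libraries at 24 h and 1 DLL4 library.

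The gene start had a peak in every Kupffer cell library and at 48 h, and none in monocytes or at 24 h. R17 had no peak in either monocyte library or in any of the 3 libraries at 24 h. It reached 51.4 and 52.1 at 48 h, and 76.8 and 62.3 in PBS Kupffer cells. Floxed Nr1h3 controls had the highest values, 87.3 and 86.5. The TIM4- knockouts had 25.9 and 26.7 and the TIM4+ knockouts 16.6 and 27.3. Libraries titled Smad4 knockout had 29.6 and 39.1, and those titled control 49.1 and 79.8. Untreated cultured macrophages had 17.2 and 14.9, and 1 DLL4 library had 13.1. All 6 control Kupffer cell libraries thus lay at or above 49.1, and the 3 cultured libraries with a peak at or below 17.2. If the Smad4 controls are taken by the strain label, the lowest of the 6 is 29.6. Within their own libraries these values fell between the 73.9th and 88.0th percentile of all regions in the control Kupffer cells, between the 35.8th and 50.3rd in the Nr1h3 knockouts, and between the 24.6th and 39.0th in culture.

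R9 held the highest values of any Cd5l region, up to 124.6, although the mean of R11 was above its own in monocytes, in both Nr1h3 knockouts and in culture. It was at the edge of detection in monocytes, with 8.14 and 12.7, which rest on 10 and 18 tags. The peak of the second monocyte library is centred at -23806 bases from the start, while the strongest peaks of the other 22 libraries are centred between -23700 and -23639. At 24 h it was 64.6, 86.3 and 44.6, and at 48 h it was 124.6 and 110.7. PBS Kupffer cells had 49.3 and 79.6 and floxed Nr1h3 controls 122.0 and 92.4. The TIM4- knockouts had 37.7 and 37.0, and the TIM4+ knockouts 35.7 and 25.9. Both libraries titled Smad4 knockout had 39.1, against 49.1 and 58.5 in those titled control. Cultured macrophages had 63.3 and 55.2 untreated and 58.1 and 70.5 with DLL4, within the range of control Kupffer cells (49.1 to 122.0, median 69.0, n = 6).

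R11, which was open everywhere, ran from 19.5 in a monocyte library to 108.8 in a DLL4 library. R24 was 19.5 and 19.0 in monocytes, had a peak in 1 of 3 libraries at 24 h (11.4), and was 21.8 and 14.7 at 48 h and 18.0 and 23 in PBS Kupffer cells. Its highest values were in culture, 90.9 and 69.2 untreated and 69.8 in both DLL4 libraries.

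Several regions called in few libraries were weak or scattered, while others, such as R8 and R13, were called in every library of a group. R19, 2.7 kb inside the gene, reached 38.8 in 1 Nr1h3 control and 31.7 in 1 titled Smad4 control, and was 7.66 to 12.3 in 4 knockout libraries. R7, 27.0 kb upstream, was called in 4 libraries at 8.54 to 28.4. R1, R4, R5, R12, R20, R22 and R23 were called in 1 to 3 libraries each, at 7.07 to 16.3 and on 10 to 22 tags.

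R17 divided by R9 within a library was 0.72 to 1.56 in the 6 control Kupffer cell libraries, 0.41 and 0.47 at 48 h, and 0.23 to 0.27 in the 3 cultured libraries with a peak at the start. In the 4 Nr1h3 knockout libraries it was 0.46 to 1.05, and in the titled Smad4 knockouts 0.76 and 1.0. The cultured libraries lay below all others, while the knockouts overlapped the control Kupffer cells, whose Nr1h3 controls had 0.72 and 0.94. These ratios were computed after the values had been seen and carry no test.

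**Figure D2:**
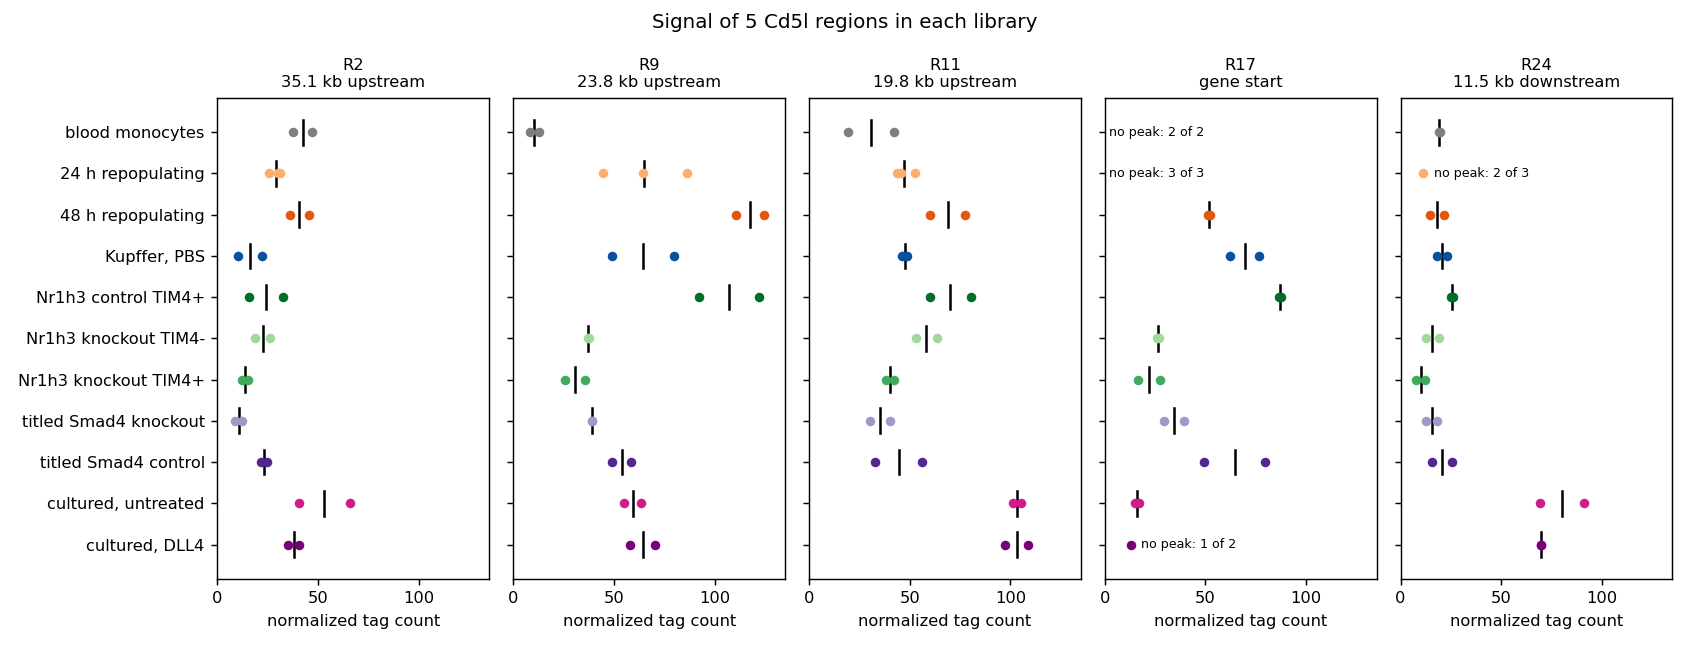
Normalized tag counts of 5 Cd5l regions in each library (points) and the group mean (bar, drawn where every library has a peak). R17 and R9 are high in control Kupffer cells and low in the Nr1h3 knockouts, and R11 and R24 are highest in cultured macrophages, where R17 is 13.1 to 17.2.

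The first comparison set macrophages of the emptied liver at 24 h against blood monocytes. Strain, tissue and toxin treatment differ between these groups and cannot be told apart. R9 was 6.87-fold higher at 24 h, a log2 difference of 2.78 (SE 0.31, adjusted p = 1.71e-07 by limma). That placed it at the 99.9th percentile of 45312 regions shared by both groups. R11 was higher by 0.95 (SE 0.29, limma adjusted p = 0.0147), with 19.5 and 42.3 in monocytes and 52.4, 43.6 and 45.5 at 24 h. R2 and R3, 33.9 kb upstream, differed by -0.26 (95% interval -0.87 to 0.34) and 0.09 (-0.62 to 0.79) and did not pass. So 2 of 4 shared regions changed, both higher, where 26.0% of all shared regions changed, 16.7% higher and 9.33% lower. Presence gave no difference: 0 Cd5l regions had a peak in all libraries at 24 h and none in monocytes, or the reverse (3.02% and 4.49% of all regions). The call of R11 was lost without centring (0.69), without the first monocyte library (0.60) and without the first library at 24 h (0.90). With missing values at the lowest deposited one both R9 and R11 passed (26.9% of all regions did).

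More Cd5l regions were called at 48 h than at 24 h. Peak numbers move with this comparison, with 75159 and 84395 per library at 48 h and 63682 to 69027 at 24 h. Libraries at 48 h held 11.47 and 13.63 M tags, and those at 24 h 10.54 to 11.01 M. The part of peak number and depth in the added regions was not tested. R14 (7.4 kb upstream, 10.5 and 10.3), R17, R18 (1.0 kb inside the gene, 18.3 and 13.2) and R21 (4.4 kb inside, 13.1 and 11) were called in both libraries at 48 h and in none of 3 at 24 h. That is 4 of the 13 Cd5l regions with a peak in any of the 5 libraries, against 5.09% of 99679 regions over the genome, and the opposite pattern held for 0 (0.608% of all). R10, 20.6 kb upstream, was called in 1 library at 24 h (20.6) and both at 48 h (36.6 and 38.9), and R15, 6.6 kb upstream, in 1 (15.4) and both (20 and 31.5). None of the 3 shared regions changed by limma's test, where 5.44% of all shared regions did, 1.92% higher and 3.53% lower. R9 differed by 0.73 (SE 0.23, adjusted p = 0.0586, unadjusted p = 0.00367), R11 by 0.37 (SE 0.24) and R2 by 0.31 (SE 0.30), and 1 of the 3 had an unadjusted p under 0.05, as had 21.8% of all shared regions. R9 passed without the second library at 24 h (0.92) and without centring (0.89). With a missing value set at the lowest deposited one of its library, R17 differed by 2.84 and R18 by 1.17, and both passed (5.51% of all regions did in that setting).

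A peak at the start that is missing in monocytes and at 24 h and present in every library at 48 h and of PBS Kupffer cells was rare. The windows of 33 of 27025 genes in the promoter table (0.122%) showed it, Cd5l among them, while a peak in Kupffer cells and none in monocytes was seen at 331 (1.22%). This count was made after the Cd5l values had been seen.

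PBS Kupffer cells were then compared with the 48 h macrophages. R17 was 1.63-fold higher in Kupffer cells, a log2 difference of 0.71 (SE 0.24, adjusted p = 0.0236 by limma), while R2 and R9 were lower, at -1.06 (SE 0.33, adjusted p = 0.0155) and -0.60 (SE 0.21, adjusted p = 0.0280). Thus 3 of 6 shared regions changed, where 25.6% of all shared regions did, 13.8% higher and 11.8% lower. R13, 8.0 kb upstream, and R16, 1.0 kb upstream of the start, were called in both Kupffer cell libraries only (R13 at 13.3 and 13.4, R16 at 27.5 and 33.6). R18 and R21 were called in both 48 h libraries only. Over the genome these patterns held for 4.53% and 12.8% of regions. None of the 3 signal calls held without the first PBS library or without the first 48 h library, and that of R17 was also lost without the second 48 h library and without centring (0.41). That of R9 was lost with all libraries of the experiment in 1 fit (adjusted p = 0.134), and with missing values at the lowest deposited one R13 and R16 passed in place of the 3 (26.1% of all regions).

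Against monocytes, PBS Kupffer cells had 7.47-fold more signal at R9, a log2 difference of 2.90 (SE 0.33, adjusted p = 1.53e-11 by limma). R11 was higher by 1.10 (SE 0.30, adjusted p = 0.00149) and R2 lower, at -1.02 (SE 0.33, adjusted p = 0.00827), from 37.4 and 47.2 to 10.4 and 22.0. R24 differed by 0.47 (SE 0.34) and did not pass. These 3 of 4 shared regions stand beside 51.0% of all shared regions that changed, 25.7% higher and 25.3% lower. R6 (27.9 kb upstream), R13, R15, R16 and R17 were called in both Kupffer cell libraries and in neither monocyte library, a pattern of 12.8% of 98502 regions. R3 was called in both monocyte libraries alone (15.9% of regions). The call of R2 was lost without the first PBS library (-0.57), and that of R11 without centring (0.71) and without the first monocyte library (0.72). With missing values at the lowest deposited one 9 regions passed, where 60.1% of all regions did. The comparison shares its Kupffer cell libraries with the one before it and its monocyte libraries with the one at 24 h. Strain and tissue differ between its groups and cannot be told apart.

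**Figure D3:**
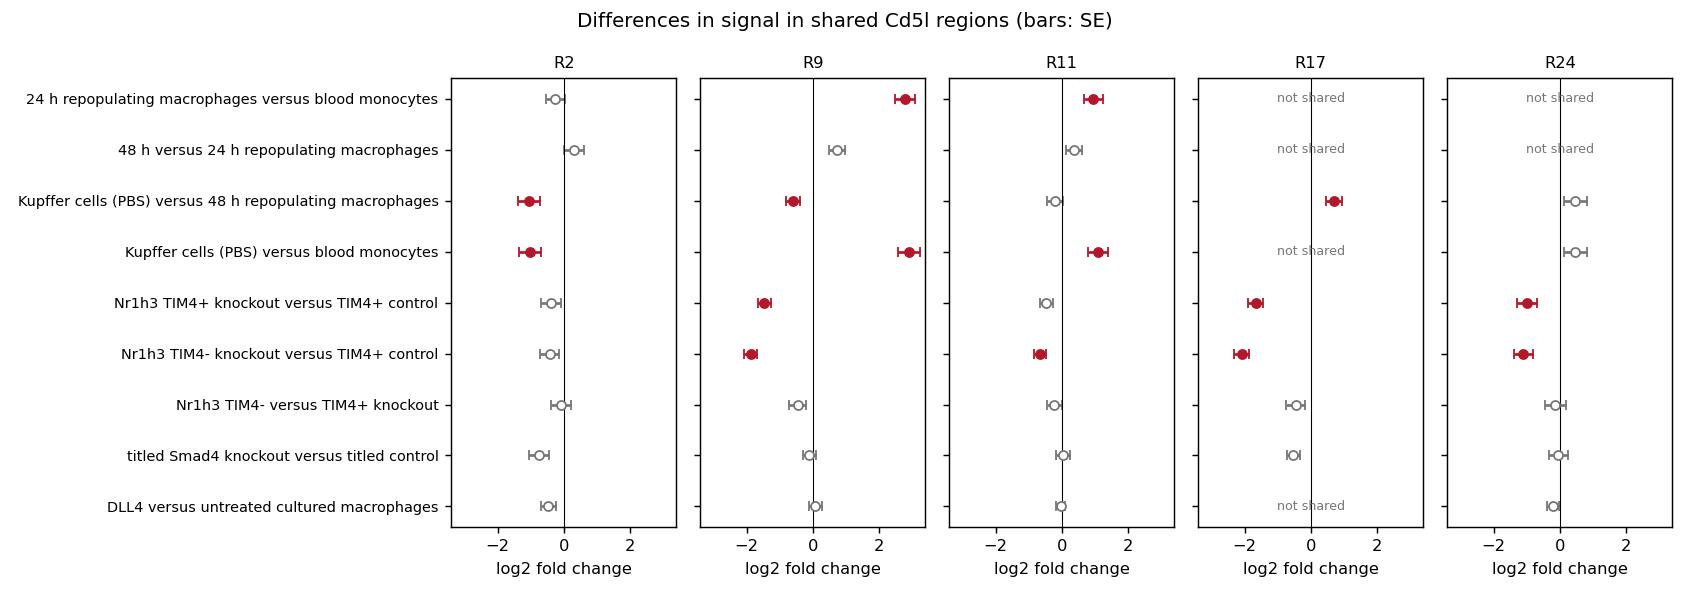
Log2 fold changes of 5 Cd5l regions in the 9 comparisons, with SE as bars. Filled points have a limma adjusted p under 0.05, and "not shared" means that some library lacked a peak. R9 and R17 move left in both Nr1h3 knockout rows, and no point is filled in the Smad4 and DLL4 rows.

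The Nr1h3 experiment compared Kupffer cells of knockouts with those of floxed controls. In both knockout comparisons the Clec word of the titles differs along with genotype, and they cannot be told apart. TIM4+ knockout cells had less signal than TIM4+ floxed controls at the gene start, at R9 upstream and at R24 inside the gene. In log2 units R17 fell by 1.67, or 3.18-fold (SE 0.22, adjusted p = 1.61e-11 by limma), and R9 fell by 1.46 (SE 0.20, adjusted p = 3.95e-11). Both lay in the lowest 0.5% of 40224 shared regions. R24 fell by 1.0 (SE 0.31, adjusted p = 0.0212), from 26.0 and 25.1 to 7.66 and 12.3. R11 (-0.47, SE 0.20, adjusted p = 0.134) and R2 (-0.38, SE 0.30) did not pass. So 3 of 5 shared regions were lower and 0 higher, where 8.80% of all shared regions changed, 3.92% lower and 4.88% higher. No libraries of the 2 groups overlapped at R9, R17 or R24, but the share of all shared regions without overlap was not counted. R24 is the weaker of the 3 calls, since leaving out 3 of the 4 libraries in turn, all but the second knockout, ended it. With missing values at the lowest deposited one 8 regions passed, all lower, but not R24 (6.77% of all regions passed).

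Further regions were missing from these knockouts. R10 (49.2 and 29.7), R13 (23.7 and 23.1), R14 (24.3 and 13.2) and R15 (30.1 and 24.4) were called in both control libraries and in no TIM4+ knockout library, and the opposite held for 0. Over the genome the control-only pattern held for 7.69% of 74126 regions and the knockout-only pattern for 1.06%. R16 was 41.1 and 37.0 in the controls and 13 in 1 TIM4+ knockout library, and R6 was 37.0 and 27.7 against 8.87 in the same library. Peak numbers move with this comparison. TIM4+ knockout libraries had 48775 and 53972 peaks and the controls 65621 and 58395, and the part of that difference in the missing regions was not tested.

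TIM4- knockout cells, compared with the same TIM4+ controls, gave like values. R17 fell by 2.09 (SE 0.22, limma adjusted p = 5.86e-18), R9 fell by 1.88 (SE 0.19, adjusted p = 3.45e-18), R24 fell by 1.10 (SE 0.30, adjusted p = 0.00480) and R11 fell by 0.66 (SE 0.19, adjusted p = 0.00942). R2 differed by -0.43 (SE 0.29) and did not pass. These 4 of 5 shared regions stand beside 13.7% of all shared regions that changed, 6.68% lower and 7.04% higher. R13 and R14 were called in the controls only (3.50% of 84521 regions, with 6.59% for the reverse, which held for 0 Cd5l regions), and R10 (12.4), R6 (14.7) and R16 (8.25) in 1 knockout library each and R15 (6.54) in the other. These libraries had 68613 and 68757 peaks, more than the controls, and signal at the regions called everywhere was higher in them (medians of 85.4 and 80.1, against 64.2 and 50.8). Without centring, R17 and R9 still passed, at -1.69 and -1.48, while R24 (-0.70) and R11 (-0.25) did not. The R11 call was also lost without the first control library (-0.61) or the first knockout library (-0.50), and the R24 call without the second control (-0.97) or the second knockout library (-0.81). With missing values at the lowest deposited one 9 regions passed, all lower (12.3% of all regions passed). Both knockout comparisons share the 2 control libraries, so they are not independent. The experiment held no TIM4- controls, so in this comparison genotype and TIM4 state cannot be told apart.

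TIM4- and TIM4+ knockout cells were not told apart at the locus. None of 5 shared regions passed limma's test, where 2.13% of all shared regions changed (0.614% higher, 1.51% lower), and 0 had an unadjusted p under 0.05 (13.4% of all). R9 differed by -0.46 (95% interval -0.96 to 0.04) and R17 by -0.46 (-1.02 to 0.10). Without centring both were 0.29, since the TIM4- libraries are shifted upward by 0.75 at all regions, and neither sign passed. Presence in both libraries of one kind and none of the other held for 0 Cd5l regions (10.9% of all regions for TIM4- and 0.560% for TIM4+), and 0 passed with missing values at the lowest deposited one (2.19% of all). Kupffer cell marker starts summed to 35.4 to 50.6 in the TIM4- libraries, whose Timd4 start had no peak, 77.9 to 103.2 in the TIM4+ knockouts and 101.1 to 141.7 in the controls, and their part in these values was not tested.

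In the Smad4 experiment none of the 5 shared regions passed limma's test, where 3.09% of all shared regions changed (1.58% higher, 1.51% lower), and R17 and R2 had an unadjusted p under 0.05 (14.7% of all). R17 was lower in the libraries titled knockout by -0.53 (95% interval -0.92 to -0.13, unadjusted p = 0.0103, adjusted p = 0.153) and R2 by -0.75 (-1.36 to -0.15, adjusted p = 0.186). R9 differed by -0.11 (-0.51 to 0.29), R24 by -0.05 and R11 by 0.04. R14 was called in both libraries titled control (18.2 and 19.1) and in neither titled knockout, and R25, 12.6 kb inside the gene, in both titled knockout only (6.70 and 13), patterns of 6.98% and 1.24% of all regions. R14 (-1.38) passed with missing values at the lowest deposited one, where 3.99% of all regions did. R16 was called in both titled control (24.2 and 28.4) and in 1 titled knockout (17.4). The interval of R9 excludes a fall as large as that in the Nr1h3 knockouts, but the 2 experiments were not compared in one test. Kupffer cell marker starts summed to 100 to 101.6 in the libraries titled control and 21.8 to 44.0 in those titled knockout, and their part was not tested.

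DLL4 for 24 h left the locus of cultured macrophages without a detectable change. None of 6 shared regions passed limma's test, where 3.89% of all shared regions changed (2.37% higher, 1.52% lower), and R2 alone had an unadjusted p under 0.05, as had 17.3% of all (-0.47, SE 0.22, unadjusted p = 0.0360, adjusted p = 0.247). R9 differed by 0.08 (95% interval -0.30 to 0.45), R11 by -0.04 (-0.34 to 0.26), R24 by -0.22 (-0.56 to 0.13) and R8, 25.8 kb upstream, by 0.16 (-0.30 to 0.63). R17 was 17.2 and 14.9 untreated, 13.1 in 1 DLL4 library and not called in the other. Presence in both libraries of one group and none of the other held for 0 Cd5l regions (2.10% and 2.00% of all), and 0 passed with missing values at the lowest deposited one (1.91% of all).

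Cultured macrophages shared R2, R9, R11 and R24 with all control Kupffer cell libraries and differed in others. R16 was called in all 6 control Kupffer cell libraries of 3 experiments and in 0 of 4 cultured libraries (1.98% of 137857 regions), R14 in 5 and 0, R13, R10 and R6 each in 4 and 0. With the Smad4 controls taken by the strain label, R16 was called in 5 of 6 and R14 in 3 of 6. R3 was called in 0 of 6 and all 4 (12.0% of regions), and R8 in 1 (17.1) and all 4 (43.6 and 31.5 untreated, 49.4 and 36.9 with DLL4). R3 was also called in both monocyte libraries (12.2 and 21.1), all 3 at 24 h (12.2, 12.7 and 18.0) and 1 at 48 h (12.5). It was called in none of the 12 Kupffer cell libraries, knockouts included. Among regions called in all 10 libraries, R24 ran from 69.2 to 90.9 in culture and from 15.7 to 26.0 in control Kupffer cells, R11 from 97.4 to 108.8 and from 32.7 to 80.4, and R2 from 34.9 to 65.7 and from 10.4 to 32.4. These 3 of 4 did not overlap, cultured libraries being higher, but the same held for 48.4% of 36018 regions, so the count is near the background. The groups are whole experiments, and culture and experiment cannot be told apart.

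Summed over all Cd5l regions, with 0 where no peak was called, the normalized tag count was 124.1 ± 38.7 (SD, n = 2) in monocytes and 174.2 ± 13 (SD, n = 3) at 24 h. It was 416.4 ± 20.9 at 48 h and 344.2 ± 22.9 in PBS Kupffer cells (SD, n = 2 each). In the Nr1h3 experiment it was 534.1 ± 82.3 in the controls, 200.4 ± 14.9 in TIM4- and 133.9 ± 28.8 in TIM4+ knockouts (SD, n = 2 each). The titled Smad4 knockouts had 190.5 ± 67.3 and the titled controls 309.7 ± 47.3, and untreated and DLL4 cultures had 382.5 ± 60.3 and 361.3 ± 14.4 (SD, n = 2 each). The order from low to high was monocytes, TIM4+ knockout, 24 h, titled Smad4 knockout, TIM4- knockout, titled Smad4 control, PBS Kupffer cells, DLL4, untreated culture, 48 h and Nr1h3 control. Neighbours in it overlapped, except TIM4+ knockouts with 24 h, TIM4- knockouts with titled Smad4 controls, and 48 h with Nr1h3 controls.

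The groups did not overlap in 8 of the 9 comparisons, all but DLL4. How many other genes do the same was not counted. The design cannot show a difference at 0.05. Among these 8, the two-sided exact permutation test over libraries gave 0.333 for 2 with 2 and 0.2 for those with 24 h. Each is the smallest p that the numbers of libraries allow. All 4 knockout libraries were below both Nr1h3 controls (exact permutation p = 0.133, the smallest possible, adjusted p = 0.407 over 11 such tests). The 6 control Kupffer cell libraries (396.0 ± 116.6, SD) and 4 cultured ones (371.9 ± 37.8, SD) overlapped (exact permutation p = 0.781, adjusted p = 0.859). Divided by the median of regions called in all libraries, their ratio moved from 1.06 to 1.91 (exact permutation p = 0.0100 unadjusted). With the Smad4 controls taken by the strain label it turned to 0.96. The same division turned the ratio of PBS Kupffer cells to 48 h from 0.83 to 1.06 and that of TIM4- to TIM4+ knockouts from 1.5 to 0.87.

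**Figure D4:**
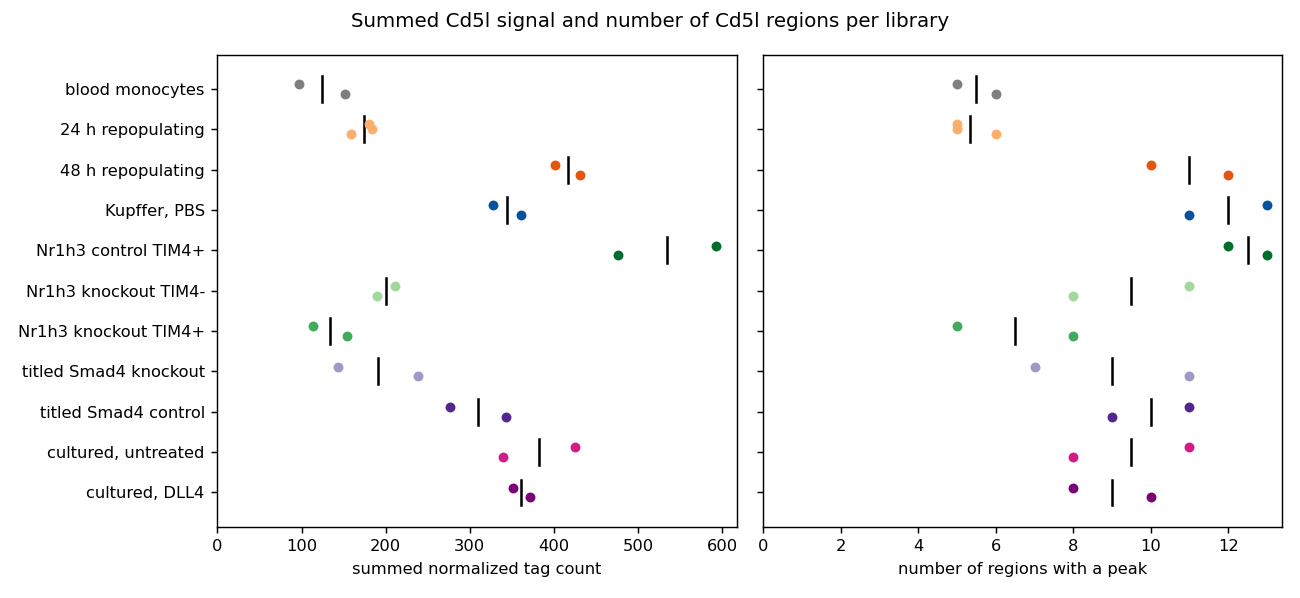
Summed normalized tag count of all Cd5l regions (left) and number of Cd5l regions with a peak (right) in each library (points) with group means (bars). Sums at 48 h and in Nr1h3 controls lie between 401.7 and 592.3, and those of monocytes, 24 h macrophages and Nr1h3 knockouts between 96.7 and 211.0.

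Several genes around Cd5l encode Fc receptor-like proteins of immune cells. Within 200 kb lie 6 gene bodies, with Kirrel (8 regions) and Fcrls (16) upstream and Fcrl1 (8), Fcrl5 (17), Etv3 (7) and Etv3l (6) downstream. Of the neighbours' 21 shared regions 0 changed in TIM4+ knockouts, where 8.80% of all did, and of 22 in TIM4- knockouts 1 rose (Fcrl5, 0.73) and 2 fell (both at Fcrls, the larger by -1.29, SE 0.34, limma adjusted p = 0.00280), where 13.7% of all changed. From monocytes to 24 h 0 of their 22 shared regions changed, and from 24 h to 48 h 0 of 21, with 0 regions called only at 48 h (26.0%, 5.44% and 5.09% of all). They did change in Kupffer cells: against monocytes 6 of 16 fell and 0 rose (25.3% and 25.7% of all), with 4 regions called in Kupffer cells only and 8 in monocytes only (12.8% and 15.9% of all). Against 48 h 1 of 21 rose and 2 fell (13.8% and 11.8% of all), and 5 were called at 48 h only (12.8% of all). Mean summed signal of Fcrl1, whose body starts 5.3 kb beyond Cd5l, was 219.2 in monocytes, 245.4 at 48 h, 160.6 in PBS Kupffer cells, and 198.9, 203.6 and 146.4 in Nr1h3 controls, TIM4- and TIM4+ knockouts. Fcrls had 380.6 in untreated culture against 97.2 in PBS Kupffer cells, with 13 and 4 regions called in both libraries.

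Regulators of Cd5l were followed gene by gene, with Nr1h3 and Nr1h2 for the 2 LXRs, Rxra for their common partner and Spi1 for PU.1. From monocytes to 24 h 1 of 3 shared regions rose at Nr1h3 (1.13, SE 0.23, limma adjusted p = 0.000396), 1 of 3 at Nr1h2 (0.80, SE 0.19, adjusted p = 0.00172), 2 of 8 at Rxra and 0 of 6 at Spi1, where 16.7% of all shared regions rose. From 24 h to 48 h 3 of 10 rose at Rxra (largest 1.67, SE 0.29, adjusted p = 0.00144) and 1 of 3 at Nr1h3 (0.80, SE 0.22, adjusted p = 0.0305), where 1.92% of all did. In Kupffer cells against 48 h 4 of 5 fell at Spi1 (largest -0.74, SE 0.19, adjusted p = 0.00383) and 1 of 3 at Nr1h3 (-0.76, SE 0.26, adjusted p = 0.0263), while 1 of 13 rose at Rxra (11.8% of all fell and 13.8% rose). In the knockouts 2 of 15 Rxra regions rose in each kind of cell and 1 fell in TIM4- cells (4.88% of all rose in TIM4+ cells, and 7.04% rose and 6.68% fell in TIM4- cells), and no Nr1h3 region passed (largest 0.35 in TIM4+ and 0.33 in TIM4- cells). Promoter windows of Nr1h3 held a peak in every library, at 93.1 and 141.1 summed in controls, 111.7 and 125.6 in TIM4+ and 144.9 and 202.1 in TIM4- knockouts. A deletion inside the gene need not remove them, so they do not check the genotype.

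Genes of CD5L's partners (Cd36, Fasn, Ighm, Jchain, Pigr and Fcmr) had 4 of 11 shared regions higher and 0 lower at 24 h (16.7% and 9.33% of all), all 4 at Cd36, the receptor that takes up CD5L (largest 2.86, SE 0.29, limma adjusted p = 4.02e-08). Of 10 shared regions in TIM4+ and 11 in TIM4- knockouts 2 rose in each (4.88% and 7.04% of all), at Cd36 by up to 1.13 (SE 0.20, adjusted p = 1.05e-06) in TIM4+ and 0.95 (SE 0.19, adjusted p = 2.02e-05) in TIM4- cells, opposite to Cd5l. Of 14 LXR targets, 9 of 92 shared regions fell and 2 rose in TIM4+ knockouts (3.92% and 4.88% of all), the largest fall being at the desaturase gene Scd1 (-2.42, SE 0.26, adjusted p = 6.35e-17). In TIM4- knockouts 11 of 94 fell and 3 rose (6.68% and 7.04% of all), with the cholesterol exporter gene Abca1 at -3.71 (SE 0.24, adjusted p = 2.04e-41). Medians of the list were 0.10 and -0.12, against 0.08 and 0.08 over all shared regions, and that of Cd5l was -1.0 and -1.1. Of 19 Kupffer identity genes, 6 of 97 regions fell and 4 rose in TIM4+ knockouts, near the 3.92% and 4.88% of all regions (largest fall at Kcna2, -1.80, SE 0.31). In TIM4- knockouts 24 of 98 fell and 3 rose, against 6.68% and 7.04% (largest fall at the scavenger receptor gene Marco, -2.14, SE 0.29). By presence, 24 of 182 regions of this list were called in controls only and 2 in TIM4+ knockouts only (7.69% and 1.06% of all). Against TIM4- knockouts 29 of 195 were called in controls only and 5 in the knockouts only (3.50% and 6.59% of all). Of 9 other genes of the scavenger receptor cysteine-rich family, 4 of 37 regions rose and 0 fell in TIM4+ knockouts (4.88% and 3.92% of all). In TIM4- knockouts 4 of 40 rose and 12 fell (7.04% and 6.68% of all), again most at Marco, which both lists hold.

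Genes whose summed signal followed that of Cd5l most closely were ranked by Pearson correlation over the 11 group means among 9778 genes, as a description over libraries that share depth and experiment. The first was Inka2, which encodes a kinase inhibitor (r = 0.960), with sums of 162.0 in monocytes, 329.2 at 48 h, 252.4 in PBS Kupffer cells, 282.4 in Nr1h3 controls and 117.0 in TIM4+ knockouts. Gm14279 (0.928), Ephx1 (0.908), Wdr25 (0.907), Hacl1 (0.906), 4930562C15Rik (0.903), Cdrt4 (0.902), Fars2 (0.890), Map3k13 (0.882) and Klhl3 (0.881) followed. With regions within 10 kb only, 2 of these 10 stayed among the first 10, and Inka2 came at rank 263. By Spearman correlation 5 stayed, with Inka2 and Gm14279 first, Map3k13 at rank 55 and Klhl3 at rank 83.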

How the data were processed

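Deposited ATAC-seq peaks of 23 libraries were the starting point. The submitters' processing notes name Bowtie2, HOMER and mm10, and tool versions were not given in the sources used here. Signal was taken as the deposited normalized tag count, which findPeaks scaled to 10000000 tags, per the file headers. Per the file headers, the deposited findPeaks score and the fold over the local background were computed per peak, and neither entered a test. The authors called peaks in each library by itself, per the file headers, in 200 bp windows at a false discovery rate of 0.001, 4-fold over the surrounding 10000 bp and without input.

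Peaks on the autosomes and X were kept (1205 of 1605886 left out) and merged at an overlap of 1 bp. Each region went to the closest protein-coding gene no more than 50 kb away (RefSeq, GRCm38.p6, 21631 genes), which placed 88.7%. Signal was tested with limma 3.58.1 (trend, two-sided, Benjamini-Hochberg over all shared regions, adjusted p of 0.05) in R 4.3.3, on log2 of the value plus 1, each library centred on its median, in regions with a peak in all libraries of the 2 groups. Fold changes understate low regions because of the added 1. The test was tried on simulated data with planted changes. Sums were compared by exact permutation tests over libraries, adjusted over 11 tests. No 2 libraries held identical values, and replicates correlated at 0.928 to 0.970.

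The locus and the lists were chosen with earlier results of these data known. The text names Cd5l with each of its regions, genes within 200 kb, the 10 genes most like Cd5l (at least 3 regions and a highest group mean no lower than that of Cd5l divided by 4), and from each list counts and the strongest gene, or for the regulators the counts of single genes, of which some are not reported here. Alternatives were the added constant, scaling, a filter at 15, missing values at the lowest deposited one, all libraries of an experiment in 1 fit, a replicate block, other merging and distance rules, and leaving out each library.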

Additional observations from a re-analysis of the deposited data

How the results depend on the processing

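Over 15 called pairs of region and comparison and 159 repeats of them, the direction held in all 159 and the call in 130, and 18 of the 29 lost calls came from leaving out 1 library. Without centring, 1 Cd5l region passed for 24 h against monocytes (2 before), 1 for 48 h against 24 h (0 before) and 2 for TIM4- knockouts (4 before), where 17.4%, 2.80% and 28.8% of all shared regions passed. That setting shifts all regions by -0.39 to 0.75 on the log2 scale and moves the share of higher calls over the genome, for example from 28.9% to 99.5% for TIM4- against TIM4+ knockouts and from 55.5% to 4.1% for TIM4+ knockouts against controls. With missing values at the lowest deposited one, which favours regions absent from 1 group by construction, the numbers were 2 for 48 h against 24 h, 9 for Kupffer cells against monocytes, 8 for TIM4+ and 9 for TIM4- knockouts and 1 for Smad4. Leaving out libraries gave 1 to 2 called regions for 24 h against monocytes, 0 to 1 for 48 h against 24 h and 0 to 3 for Kupffer cells against 48 h. Where this left 1 library in a group, it was assumed to vary like the others.

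Within 10 kb 13 regions remained. Division by the median of regions called in all libraries reversed the ratio of Kupffer cells to 48 h (1.06) and of TIM4- to TIM4+ knockouts (0.87), and raised that of control Kupffer cells to cultured macrophages to 1.91. Leaving out libraries gave ratios of 0.85 to 1.06 for DLL4 and 0.96 to 1.13 for the latter, which also turned to 0.96 with the Smad4 controls taken by the strain label, an alternative chosen after seeing the data. The medians used as divisors were 89.3 to 99.9 in culture and 37.5 to 67.1 in control Kupffer cells. At 48 h they were 77.6 and 82.1, in TIM4- knockouts 85.4 and 80.1 and in TIM4+ knockouts 43.4 and 52.6. Neither the cause of these differences nor that of the other changes was tested. A replicate block, for numbers in the Nr1h3 and culture titles, changed no Cd5l call (3, 4, 0 and 0 regions). The deviations of samples with the same number correlated at -0.04 to 0.06, so no shared deviation was seen. Whether such samples share an animal or a batch is not given by the labels. Where values rest on 9 to 20 tags, as for R9 in monocytes, depth limits what a difference can show.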
